A study of Arabidopsis thaliana with 24 samples.

Results

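The steady-state level of every annotated transcript was compared between unstressed local leaves of Arabidopsis thaliana plants that had received a drop with diphenylene iodonium (DPI) and unstressed local leaves of plants that had received a drop without it. The members were all 32833 genes of the deposited count table in 6 libraries out of the 24 of the series: the 3 of DPI control local leaves (replicates 1 to 3) and the 3 of water control local leaves (replicates 1 to 3). The drop held 50 mM DPI, or 0 mM in the water group, in 0.3% agarose and was placed midway between the local and the systemic leaf for 15 min. All plants were wild-type Columbia-0, 4 to 5 weeks old, grown at 23 °C in 8 h of light at 50 µmol photons m−2 s−1 and 16 h of dark, and each replicate was a pool of leaves from many plants. These control leaves were sampled with 0 min of excess light, so both groups shared the drop, the agarose and the absence of light stress, and differed in DPI. The other 18 libraries were DPI and water control systemic leaves, and local and systemic leaves of plants whose local leaf had received 8 min of light at 2000 µmol photons m−2 s−1. They were used for the common estimate of the spread and for asking whether a response to DPI differed between leaves or light conditions.

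DPI binds the flavin of flavoenzymes and blocks them. In plants it is mostly used against the NADPH oxidases of the plasma membrane (RBOH proteins), which make superoxide outside the cell and carry a self-propagating wave of reactive oxygen species from leaf to leaf, but nitrate reductase, glycolate oxidase, cytochrome P450 reductases and mitochondrial dehydrogenases are flavoenzymes too. Salicylic acid, jasmonate, ethylene and abscisic acid are the hormones that leaves use in responses to pathogens, wounding and water loss, and each has enzymes, receptors and target genes whose transcripts can be followed separately. The leaf label held up in its markers only as far as they were measured: transcripts of photosystem and Calvin cycle proteins were among the most abundant of all 6 libraries, while the seed storage protein transcript CRA1 and the root hair transcript COBL9 were at 0 in all 6. Not all 7 listed root, seed or flower markers were absent. With BGLU23 among them, they summed to 57.2 to 92.9 normalized counts in DPI libraries and 42.3 to 55.4 in water libraries.

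The 6 libraries held 15679838 to 22202343 reads assigned to genes, so that 3 reads, the limit that a count of 0 allows in a library, stood for 2.44 to 3.40 normalized counts. Replicates correlated across tested genes with r between 0.991 and 0.993, and every pair differed by more than sampling noise (chi-square per degree of freedom 1.98 to 3.57), so all 6 were kept as separate replicates. DPI replicate 3 had the largest share of reads on plastid-encoded genes, 0.166%, against 0.0535% to 0.0797% in the other 5 libraries. Of all tested genes, 21.5% were higher and 19.0% lower under DPI, and the marker counts that follow are too few to be set apart from these shares. Of 7 guard cell markers tested, 0 rose and 2 fell (1 without DPI replicate 1), with a summed level of 39433 to 44205 normalized counts in DPI libraries and 48223 to 53310.0 in water libraries. Of 2 phloem markers, SUC2, the sucrose loader of companion cells, rose by 0.37 on the log2 scale (limma adjusted p 1.13e-10), and the summed level was 3122 to 3295 in DPI libraries and 2447 to 2577 in water libraries. Of 7 root, seed or flower markers, 2 were tested and 1 rose (BGLU23, 86.1, 68.0 and 47.0 normalized counts under DPI against 33.3, 48.8 and 35.8 under water, limma adjusted p 0.0155), and the list summed to 57.2 to 92.9 and 42.3 to 55.4. The part of these differences in the results below was not tested, and in leaf tissue fewer cells of a type cannot be told apart from less RNA per cell.

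DPI changed the level of many transcripts in the unstressed local leaf, mostly by small amounts, and the large changes were nearly all rises. Of 18314 genes tested, 7420 passed the threshold (an adjusted p under 0.05 in limma, on log2 of the normalized count plus 1), which is a background of 40.5%. Of these, 3944 were higher under DPI (21.5%) and 3476 lower (19.0%). The median log2 difference of the genes that rose was 0.45 and of those that fell −0.33. At least 2-fold, 816 genes rose and 191 fell (4.46% and 1.04% of tested genes), at least 4-fold 241 rose (1.32%) and 6 fell, and at least 8-fold 64 rose and 1 fell. Without DPI replicate 3, the library with the larger plastid share, 6717 genes passed (3602 higher and 3115 lower), with 778 rises and 192 falls of at least 2-fold. The 3 DPI and 3 water libraries did not overlap for 8905 genes (48.6%), of which 7030 also passed the threshold.

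The 10 largest rises among genes with a mean of at least 50 normalized counts in the higher group, and with libraries that did not overlap, were led by a pair of neighbouring lipid transfer protein genes. LTP4 (AT5G59310) had 151, 74.0 and 70.4 normalized counts in the 3 DPI libraries, against 0, 0 and 0 in the 3 water libraries, which is at least 32.5-fold higher when the mean is set against the floor of 3 reads in a library. LTP3 (AT5G59320) had 861, 518 and 526 under DPI against 12.1, 16.9 and 15.5 under water, a difference of 5.30 in log2 units (SE 0.309, limma adjusted p 1.22e-17). Both are small secreted proteins that carry lipids, the water libraries were uniformly low, and DPI replicate 1 was the highest for each. Reads of these closely related neighbours may have been divided between them in the authors' counting, so the level of either alone is uncertain.

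ARD3 (AT2G26400), an acireductone dioxygenase of the methionine salvage cycle, had 443, 450.3 and 460.3 normalized counts under DPI against 10.1, 13.1 and 13.9 under water, a difference of 5.09 in log2 units (SE 0.203, limma adjusted p 6.47e-23). PR1 (AT2G14610), the secreted protein used as the marker of salicylic acid signalling, had 1053, 1056 and 1254 under DPI against 42.3, 32.9 and 32.6 under water (log2 difference 4.93, SE 0.128, limma adjusted p 7.66e-29). UGT76B1 (AT3G11340), a glucosyltransferase that conjugates isoleucic acid, salicylic acid and N-hydroxypipecolic acid, had 244, 290.1 and 287 under DPI against 6.05, 10.3 and 8.96 under water (log2 difference 4.88, SE 0.257, limma adjusted p 4.69e-19). In each of these genes the 3 DPI libraries lay close together, and their separation from the 3 water libraries was a condition of the choice. AT3G13610, the feruloyl-CoA hydroxylase F6'H1 of coumarin synthesis, had 109, 125 and 128 under DPI against 2.02, 4.70 and 3.26 under water, a difference of 4.86 (SE 0.395, limma adjusted p 2.19e-13). GSTU4 (AT2G29460), a glutathione transferase, had 46.5, 46.7 and 59.2 under DPI against 1.01, 0.939 and 0.815 under water. The water values were 1 read each, 3 reads in all against 145, so the ratio carries a 95% counting interval of 18.7 to 273 around 55.7.

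The other 3 of the 10 were enzymes of pathogen defence. FMO1 (AT1G19250), the flavin monooxygenase that turns pipecolic acid into the systemic resistance signal N-hydroxypipecolic acid, had 81.6, 54.8 and 79.6 normalized counts under DPI against 3.02, 0.939 and 3.26 under water (log2 difference 4.48, SE 0.528, limma adjusted p 3.48e-09). PAD3 (AT3G26830), the cytochrome P450 of the last step of camalexin synthesis, had 90.6, 103 and 109 under DPI against 1.01, 6.57 and 8.96 under water (log2 difference 4.26, SE 0.428, limma adjusted p 6.73e-11). ALD1 (AT2G13810), the aminotransferase that begins pipecolic acid synthesis from lysine, had 122, 134 and 134 under DPI against 6.05, 4.70 and 8.15 under water (log2 difference 4.19, SE 0.37, limma adjusted p 2.11e-12). FMO1 is itself a flavoenzyme. Libraries that did not overlap were a condition of the choice of all 10 genes.

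**Figure D1:**
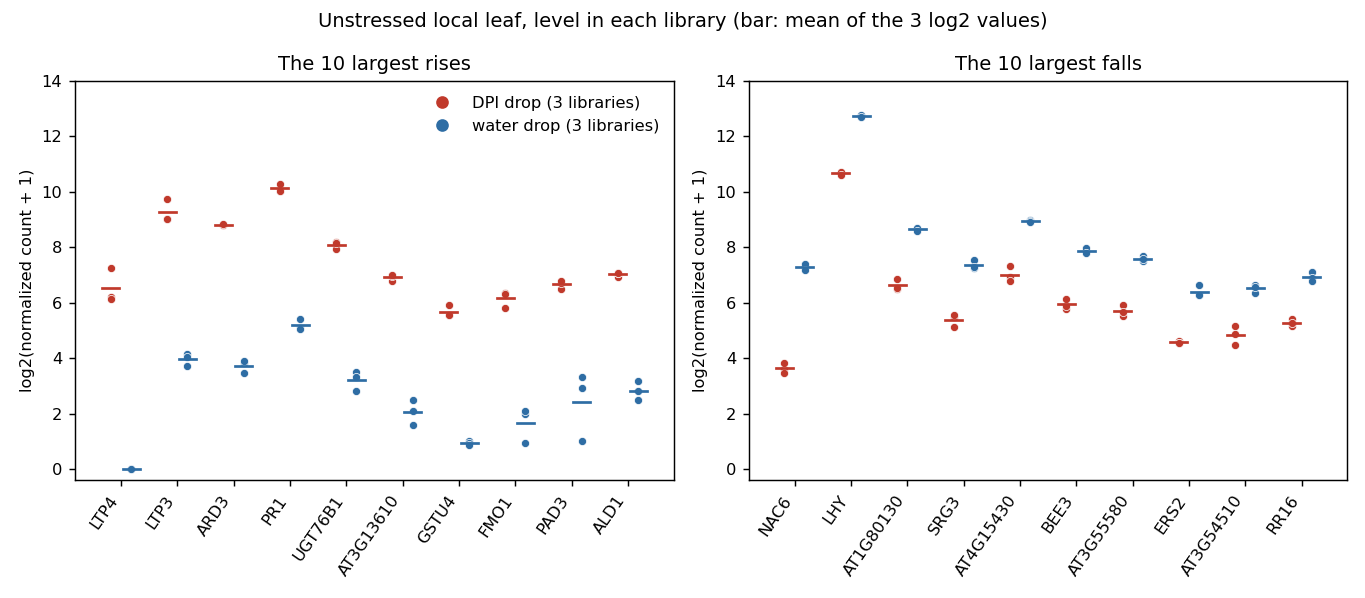
Normalized counts, on a log2 axis after adding 1, of the 10 largest rises and 10 largest falls under DPI in the unstressed local leaf, among genes with a higher group mean of at least 50 and libraries that did not overlap. Points are the 3 DPI libraries and the 3 water libraries, and bars mark the mean of the 3 log2 values. LTP4 sits at 0 in all water libraries, PR1 lies between 1053 and 1254 under DPI and between 32.6 and 42.3 under water, and NAC6 shows the widest gap among the falls.

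The 10 largest falls under the same limits on level and overlap were smaller and included several regulators. NAC6 (AT5G39610), also known as ORE1, a NAC factor of leaf ageing, had 11.3, 10.1 and 13.3 normalized counts under DPI against 160.2, 169 and 144 under water, a difference of −3.66 in log2 units (SE 0.37, limma adjusted p 7.61e-11). LHY (AT1G01060), a morning transcription factor of the circadian clock, had 1628, 1697 and 1572 under DPI against 6884, 7030.4 and 6734 under water (log2 difference −2.08, SE 0.0384, limma adjusted p 1.4e-33). BEE3 (AT1G73830), a bHLH factor induced early by brassinosteroids, had 54.4, 58.8 and 70.4 under DPI against 225, 254 and 219 under water (log2 difference −1.92, SE 0.147, limma adjusted p 4.27e-14). For these 3 transcription factors, as for all 10 genes, libraries that did not overlap were a condition of the choice. ERS2 (AT1G04310), an ethylene receptor, had 23.8, 22.3 and 22.5 under DPI against 77.6, 77.0 and 98.6 under water (log2 difference −1.83, SE 0.215, limma adjusted p 3.1e-09). RR16 (AT2G40670), a type-A response regulator of cytokinin signalling, fell by 1.64 on the log2 scale, and SRG3 (AT3G02040), a glycerophosphodiester phosphodiesterase, fell by 1.97. The remaining 4 were AT1G80130, which encodes a tetratricopeptide repeat protein (fell by 2.01), AT4G15430 and AT3G54510, which encode membrane proteins of the early-responsive to dehydration family (fell by 1.94 and 1.68), and AT3G55580, which encodes a regulator of chromosome condensation family protein (fell by 1.88), with limma adjusted p of 1.12e-19, 3.45e-18, 5.84e-09 and 4.63e-14.

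The 250 bases before the annotated start of 4 genes on which the results turn are shown, from the RefSeq annotation of the TAIR10.1 build: FMO1 and ALD1 for the rises, LHY and FSD1 (the iron superoxide dismutase described with the scavenging enzymes) for the falls. Capitals mark matches, on either strand, to motifs searched for: TGACG (bound by TGA factors), TTGACC and TTGACT (by WRKY factors), the G-box CACGTG, the evening element AAAATATCT and the copper response core GTAC. The FMO1 window is on chromosome 1, 6653196 to 6653445, minus strand, and holds a GTAC and a G-box.
FMO1: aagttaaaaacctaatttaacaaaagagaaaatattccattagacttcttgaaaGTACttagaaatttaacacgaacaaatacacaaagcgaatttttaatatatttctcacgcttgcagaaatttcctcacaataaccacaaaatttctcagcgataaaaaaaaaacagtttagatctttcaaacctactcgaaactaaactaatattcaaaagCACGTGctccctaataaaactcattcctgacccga
The ALD1 window is on chromosome 2, 5768167 to 5768416, plus strand, and holds 5 GTAC matches.
ALD1: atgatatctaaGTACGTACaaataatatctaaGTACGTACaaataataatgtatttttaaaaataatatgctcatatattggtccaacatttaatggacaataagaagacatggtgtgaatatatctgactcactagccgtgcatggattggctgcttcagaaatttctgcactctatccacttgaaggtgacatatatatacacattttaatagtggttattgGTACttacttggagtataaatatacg
The LHY window is on chromosome 1, 37872 to 38121, minus strand, and holds a GTAC and a G-box.
LHY: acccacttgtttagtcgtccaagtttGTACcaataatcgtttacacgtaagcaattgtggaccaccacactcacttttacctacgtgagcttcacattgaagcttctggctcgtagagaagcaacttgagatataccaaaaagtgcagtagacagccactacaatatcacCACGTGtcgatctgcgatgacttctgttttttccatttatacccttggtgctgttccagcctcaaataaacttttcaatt
The FSD1 window is on chromosome 4, 12887012 to 12887261, minus strand, and holds a GTAC and a TGACG, the last read as CGTCA on the strand shown.
FSD1: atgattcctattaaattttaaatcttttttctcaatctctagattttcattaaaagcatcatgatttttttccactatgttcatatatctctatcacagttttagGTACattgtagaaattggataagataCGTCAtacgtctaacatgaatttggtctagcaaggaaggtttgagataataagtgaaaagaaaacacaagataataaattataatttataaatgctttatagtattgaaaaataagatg
Such matches describe the letters only. Among 32546 promoter windows of this length, 18.4% held TGACG, 11.8% TTGACC, 18.7% TTGACT, 5.9% CACGTG, 2.23% AAAATATCT and 34.7% GTAC, and the 10 largest rises held them in 2, 1, 2, 1, 1 and 7 windows and the 10 largest falls in 3, 3, 2, 1, 0 and 6. Of the 24 clock genes described further on, 9 (37.5%) held the G-box, 6 (25%) the evening element, 10 (41.7%) TGACG, 1 (4.17%) TTGACC, 3 (12.5%) TTGACT and 5 (20.8%) GTAC.

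**Figure D2:**
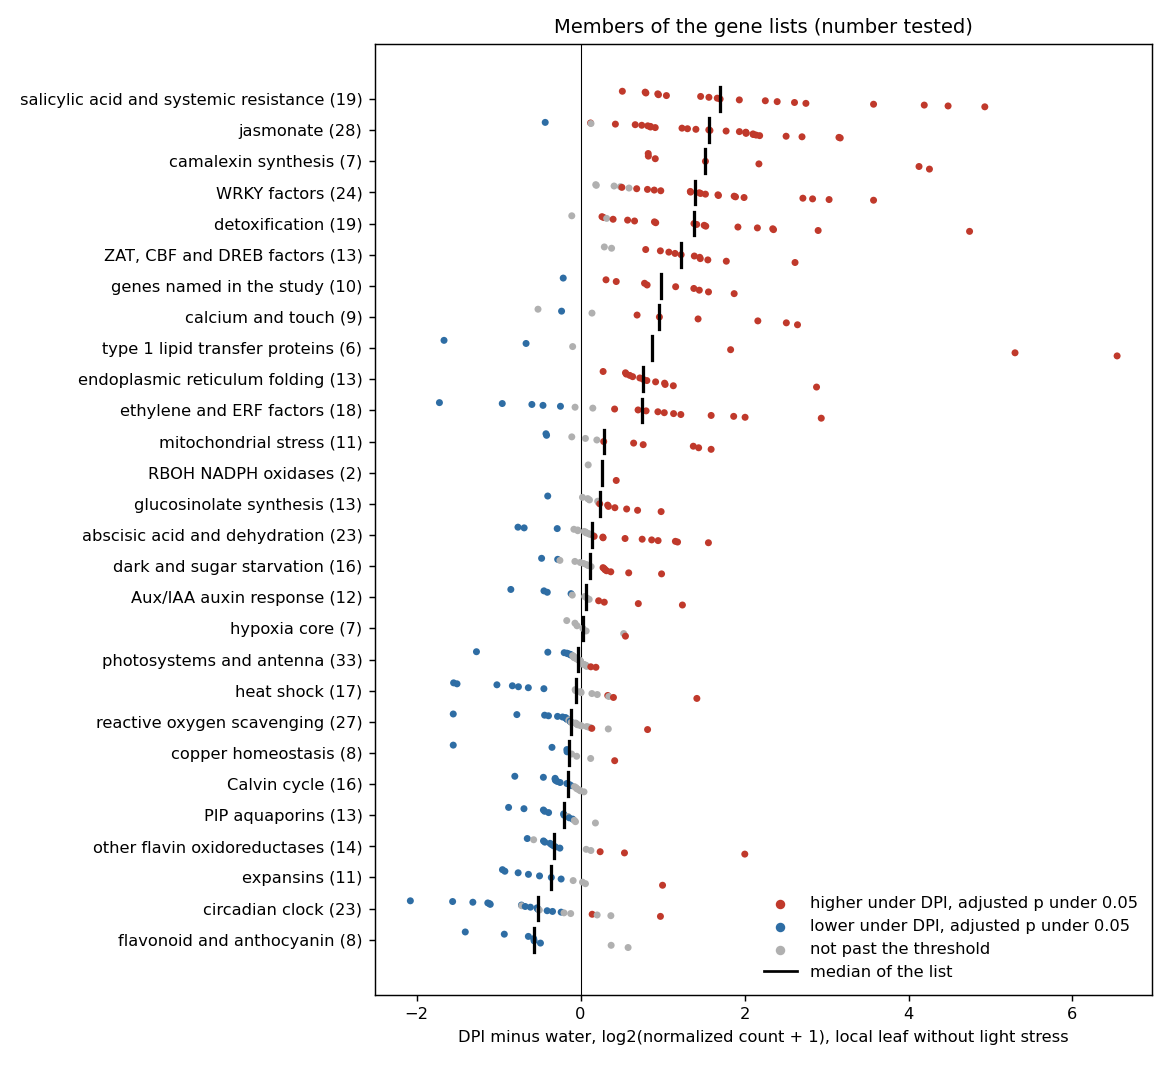
Log2 difference between DPI and water in the unstressed local leaf for every tested member of the gene lists. Each point is a gene, colored by whether it was higher or lower past the threshold or did not pass, the vertical bar is the list's median, and the number tested stands in parentheses. Salicylic acid and jasmonate genes lie mostly above 0 (medians 1.70 and 1.57) and clock genes mostly below 0 (median −0.53).

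Salicylic acid genes rose throughout, against a background of 21.5% of tested genes that rose. This share, and the 19.0% that fell, are the background for the counts of every list below. All 19 of the 19 members passed the threshold in that direction, with a median log2 difference of 1.70 beside a median of 0.00 over all tested genes. The synthesis branch comprised ICS1 (AT1G74710), the isochorismate synthase, with 1217, 1313 and 1227 normalized counts under DPI against 737, 595 and 618 under water (log2 difference 0.95, SE 0.0743, limma adjusted p 7.42e-14). EDS5 (AT4G39030), the transporter that exports isochorismate from the plastid, rose by 1.57, and PBS3 (AT5G13320), which joins isochorismate to glutamate, had 623, 639 and 616 under DPI against 152, 104 and 103 under water. Of these 3, PBS3 had the largest change. In the pipecolic acid branch, SARD4 (AT5G52810), the reductase that follows ALD1, rose by 1.70, less than ALD1 or FMO1. The transcription factors SARD1 (AT1G73805) and CBP60G (AT5G26920), which activate both branches, rose by 2.61 and 1.67. The receptor NPR1 (AT1G64280) had 768, 775 and 729.8 under DPI against 516, 521 and 559 under water, the smallest change of the list (log2 difference 0.51, SE 0.0576, limma adjusted p 1.27e-09). Among the immune regulators of the EDS1 family, EDS1 (AT3G48090) rose by 1.05, PAD4 (AT3G52430) by 0.94 and SAG101 (AT5G14930) by 0.80. Of the targets, the glucanase PR2 (AT3G57260) had 1948, 2013 and 2009.7 under DPI against 425, 358 and 475 under water, a difference of 2.25, whereas the thaumatin-like PR5 (AT1G75040) rose by 0.79. WRKY38 (AT5G22570), a WRKY factor downstream of NPR1, had 126, 131 and 110.2 under DPI against 13.1, 9.39 and 6.52 under water (log2 difference 3.57, SE 0.252, limma adjusted p 3.54e-15).

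Camalexin, the indole phytoalexin of Arabidopsis, and indole glucosinolates start from the same tryptophan-derived oxime. All 7 tested camalexin genes rose, with a median of 1.52. The oxime-forming CYP79B2 (AT4G39950) and CYP79B3 (AT2G22330) each rose by 0.83, and the next enzyme, CYP71A13 (AT2G30770), had 58.9, 87.2 and 102 normalized counts under DPI against 4.03, 3.76 and 3.26 under water (log2 difference 4.13, SE 0.481, limma adjusted p 2.64e-09). CYP71A13 has a close copy, CYP71A12, which was below the filter, and reads may be shared between them. The glutathione transferase GSTF6 (AT1G02930) rose by 2.18, and the regulator WRKY33 (AT2G38470) had 1400.3, 1436 and 1519 under DPI against 485, 475 and 556 under water, a difference of 1.52. Of 13 tested glucosinolate genes 7 rose and 1 fell, with a median of 0.23. The 2 largest were MYB51 (AT1G18570), the activator of the indole branch, with 357, 386 and 389 under DPI against 180.4, 197 and 194 under water (log2 difference 0.98, SE 0.069, limma adjusted p 3.29e-15), and CYP83B1 (AT4G31500), the first committed P450 of that branch, which rose by 0.70. MYB28 (AT5G61420), the activator of the aliphatic branch, fell by 0.40 (limma adjusted p 2.38e-05). Without water replicate 1 the number of glucosinolate genes that rose was 4 rather than 7.

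Genes of chemical detoxification rose in 17 of 19 tested members (28 were listed, and 9 did not reach the filter), with a median of 1.38. The second largest after GSTU4 was CYP81D11 (AT3G28740), a P450 induced by many foreign chemicals, with 47.6, 26.4 and 42.9 normalized counts under DPI against 4.03, 3.76 and 4.89 under water (log2 difference 2.90, SE 0.409, limma adjusted p 1.8e-07). GSTF7 (AT1G02920) had 1161, 1175 and 1222 under DPI against 297, 241 and 259.9 under water, a difference of 2.16. Several members were low: with only genes above a mean of 50 normalized counts, 9 rose. Of 11 tested genes of mitochondrial stress, 6 rose and 2 fell (median 0.28). OM66 (AT3G50930), an outer mitochondrial membrane AAA protein, had 366, 430.0 and 449 under DPI against 128, 123 and 161 under water (log2 difference 1.59, SE 0.0887, limma adjusted p 3.02e-18), and DIC1 (AT2G22500), a dicarboxylate carrier, had 669.6, 734 and 765 under DPI against 238, 239 and 328 under water (log2 difference 1.44, SE 0.0843, limma adjusted p 1.43e-17). The alternative oxidase AOX1A (AT3G22370), the usual marker of a blocked respiratory chain, had 952, 986 and 975 under DPI against 921, 955 and 919 under water, and these overlapped (limma adjusted p 0.29). Of 7 tested genes of the hypoxia core, 1 rose and 0 fell. That gene was the sucrose synthase SUS1 (AT5G20830), with 409, 421 and 359 under DPI against 235, 309.9 and 271 under water (log2 difference 0.55, SE 0.0848, limma adjusted p 1.09e-06).

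The RBOH family, the enzymes DPI was used against, was represented by 2 members, since 8 of 10 did not reach the filter. RBOHD (AT5G47910), the oxidase that carries the reactive oxygen wave, had 1301, 1428 and 1397 normalized counts under DPI against 1003, 997 and 1049 under water (log2 difference 0.44, SE 0.0422, limma adjusted p 2.65e-11). RBOHF (AT1G64060) had 279, 276 and 256 under DPI against 241, 258 and 261 under water, which overlapped (log2 difference 0.09, SE 0.0776, limma adjusted p 0.367). Of 14 other flavin oxidoreductases tested, 3 rose and 8 fell (median −0.32). The polyamine oxidase PAO1 (AT5G13700) had 39.7, 40.6 and 37.8 under DPI against 7.05, 17.8 and 5.70 under water (log2 difference 2.00, SE 0.307, limma adjusted p 8.94e-07). The chloroplast ferric reductase FRO7 (AT5G49740) had 3932, 3925 and 3671 under DPI against 6283, 5974 and 5835 under water (log2 difference −0.65, SE 0.0341, limma adjusted p 4.35e-19). The nitrate reductases NIA1 (AT1G77760) and NIA2 (AT1G37130) fell by 0.45 and 0.44, and the photorespiratory glycolate oxidases GOX1 (AT3G14420) and GOX2 (AT3G14415) by 0.35 and 0.33. GOX1 and GOX2 are close copies, as are GSTF6 and GSTF7, and their separate values are uncertain.

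Genes that remove reactive oxygen species fell more often than they rose: of 27 tested, 12 fell and 2 rose (median −0.12), beside backgrounds of 19.0% and 21.5%. FSD1 (AT4G25100) fell most. It encodes an iron superoxide dismutase of the chloroplast that is induced through SPL7 when copper is scarce, and had 363, 307 and 351 normalized counts under DPI against 965, 972 and 1059 under water (log2 difference −1.55, SE 0.134, limma adjusted p 1.26e-12). CAT2 (AT4G35090), the main leaf catalase of peroxisomes, had 29551, 27612 and 28187 under DPI against 51926, 44807 and 49737 under water, a difference of −0.78, and the glutathione reductase GR1 (AT3G24170) fell by 0.44. The dehydroascorbate reductase DHAR1 (AT1G19570) went the other way, with 3385, 3334 and 3343 under DPI against 1829, 1934 and 1947 under water (log2 difference 0.82, SE 0.0416, limma adjusted p 1.59e-19). The other member that rose, the glutathione peroxidase GPX6 (AT4G11600), changed by 0.14 (limma adjusted p 0.0488), and in 5 alternatives, those without DPI replicate 1 or water replicate 2 among them, the list held 1 rise. In the copper list, 4 of 8 tested genes fell and 1 rose (2 without DPI replicate 2). The partner of FSD1 in the copper response, the chloroplast copper/zinc superoxide dismutase CSD2 (AT2G28190), had 10031, 9759 and 10256 under DPI against 11479, 10768 and 11435 under water, a difference of −0.16 (limma adjusted p 0.000134), and the copper transporter COPT1 (AT5G59030) fell by 0.35. The metal reductase FRO4 (AT5G23980) rose by 0.42 (limma adjusted p 0.0144), and without water replicate 1 this was 0.25 (limma adjusted p 0.183).

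Jasmonate genes rose in 26 of 28 tested members and 1 fell, with a median of 1.57. Each step of synthesis had members that rose. The plastid lipoxygenases LOX3 (AT1G17420) and LOX4 (AT1G72520) rose by 2.14 and 2.02, the allene oxide synthase AOS (AT5G42650) by 0.75, and the peroxisomal reductase OPR3 (AT2G06050) by 2.02, with 3947, 4138 and 3924 normalized counts under DPI against 994, 1054 and 919 under water. JAR1 (AT2G46370), which makes the active isoleucine conjugate, rose by 0.85. The conjugate is broken down by CYP94B3 (AT3G48520), which had 442, 487 and 604 under DPI against 44.3, 48.8 and 81.5 under water (log2 difference 3.15, SE 0.294, limma adjusted p 9.14e-12), and by CYP94C1 (AT2G27690), which rose by 1.78. Genes of synthesis and of breakdown were thus both higher under DPI. Of the JAZ repressors, JAZ7 (AT2G34600) rose most, with 173, 189.7 and 186 under DPI against 27.2, 33.8 and 22.0 under water, and JAZ11 (AT3G43440) was the member that fell (by 0.43, limma adjusted p 0.00411). Among targets, TAT3 (AT2G24850), a tyrosine aminotransferase, had 1076, 1117 and 1064 under DPI against 133, 106 and 122 under water (log2 difference 3.17, SE 0.0936, limma adjusted p 4.64e-27), and the vegetative storage protein VSP2 (AT5G24770) had 616, 738 and 678 under DPI against 153, 213 and 140.1 under water, a difference of 2.02. The regulator MYC2 was listed at 0 in all 6 libraries. How the authors counted reads of overlapping genes is not known, so this 0 was not taken as absence.

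Of 18 tested ethylene and ERF genes, 11 rose and 5 fell (median 0.75): synthesis and ERF genes were among those that rose, and receptors among those that fell. The rate-limiting synthase gene ACS6 (AT4G11280) had 2104, 2234 and 2309 normalized counts under DPI against 874, 989.7 and 985 under water, a difference of 1.22, and the transcription factors RRTF1 (AT4G34410) and ERF6 (AT4G17490) rose by 2.94 and 2.01 (limma adjusted p 2.49e-08 and 1.25e-16). Those that fell included the receptors ETR2 (AT3G23150, −1.72) and ERS1 (AT2G40940, −0.46) and the F-box proteins EBF2 (AT5G25350, −0.96) and EBF1 (AT2G25490, −0.25), which remove the ethylene regulator EIN3. Of 23 tested abscisic acid genes, 10 rose and 3 fell (median 0.14). The largest were RD29B (AT5G52300), a dehydration-induced target, with 38.5, 42.6 and 34.7 under DPI against 14.1, 10.3 and 13.0 under water (log2 difference 1.56, SE 0.302, limma adjusted p 4.67e-05), and CYP707A1 (AT4G19230), which breaks abscisic acid down, with 79.3, 75.1 and 73.5 under DPI against 28.2, 32.9 and 38.3 under water (log2 difference 1.18, SE 0.186, limma adjusted p 1.47e-06). Of the 6 type 1 lipid transfer proteins, LTP2, LTP3 and LTP4 rose, and LTP5 (AT3G51600) and LTP6 (AT3G08770) fell by 0.66 and 1.67, whereas LTP1 did not pass the test.

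Calcium-binding and touch-induced genes rose in 6 of 9 tested members and 1 fell (median 0.96). CML37 (AT5G42380), a calmodulin-like protein, had 101, 100.4 and 128 normalized counts under DPI against 15.1, 12.2 and 24.4 under water (log2 difference 2.65, SE 0.174, limma adjusted p 4.53e-16), and TCH4 (AT5G57560), a cell wall xyloglucan-modifying enzyme, had 6358, 6006 and 6562 under DPI against 1128, 1111 and 1080.3 under water (log2 difference 2.51, SE 0.0416, limma adjusted p 7.2e-35). The zinc finger and CBF/DREB factors of rapid stress responses rose in 11 of 13 tested members and 0 fell (median 1.23). ZAT7 (AT3G46090) had 63.4, 99.4 and 102 under DPI against 22.2, 8.45 and 12.2 under water (log2 difference 2.62, SE 0.24, limma adjusted p 6.08e-12). ZAT11 (AT2G37430), the second largest, had 2.27, 6.09 and 9.19 under DPI against 2.02, 0.939 and 0 under water, a few reads a library, and its adjusted p of 0.0175 in limma lay above 0.05 in 5 alternatives. WRKY factors rose in 19 of 24 tested members and 0 fell (median 1.40). After WRKY38, WRKY62 (AT5G01900) rose most (14.7, 26.4 and 31.6 under DPI against 5.04, 0 and 3.26 under water, log2 difference 3.03, SE 0.603, limma adjusted p 6.87e-05), and WRKY18 (AT4G31800) had 999, 989 and 1038 under DPI against 147, 151 and 161 under water, a difference of 2.71.

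Genes of protein folding in the endoplasmic reticulum rose in 13 of 13 tested members (median 0.76). BIP3 (AT1G09080), the inducible luminal HSP70, had 201, 243 and 245 normalized counts under DPI against 48.4, 17.8 and 31.8 under water (log2 difference 2.88, SE 0.23, limma adjusted p 1.3e-13). PDIL1-1 (AT1G21750), a protein disulfide isomerase, had 1754, 1781 and 1774 under DPI against 871, 744 and 812 under water (log2 difference 1.13, SE 0.0522, limma adjusted p 7.37e-21). The luminal HSP90 SHD (AT4G24190) and the lectin chaperone CNX1 (AT5G61790) rose by 0.81 and 0.76, and the 2 transcription factors of this response, BZIP60 (AT1G42990) and BZIP28 (AT3G10800), by 0.64 and 0.28. BIP1 and BIP2 are near-identical, so their separate values are uncertain. Heat shock genes moved otherwise: of 17 tested, 3 rose and 7 fell (median −0.06). HSFA2 (AT2G26150), a heat-induced transcription factor, had 65.7, 70.0 and 71.4 under DPI against 235, 181 and 199 under water (log2 difference −1.55, SE 0.104, limma adjusted p 8.63e-16), and HSP101 (AT1G74310), the disaggregase of heat tolerance, had 197, 202 and 227 under DPI against 612, 563 and 606 under water (log2 difference −1.51, SE 0.0606, limma adjusted p 8.38e-23). HSP21 was at 0 in all 6 libraries.

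Clock transcripts were lower under DPI in 15 of 23 tested members and higher in 2, with a median of −0.53. The plant clock runs on morning factors (CCA1, LHY), their activating relatives (RVE4, RVE6, RVE8) with LNK co-activators, PRR repressors that follow through the day, and evening factors (TOC1, the ELF3, ELF4 and LUX complex). CCA1 (AT2G46830) had 3324, 3259 and 3163 normalized counts under DPI against 7117, 7013 and 6907 under water (log2 difference −1.11, SE 0.0317, limma adjusted p 1.57e-27), a smaller fall than that of LHY. RVE8 (AT3G09600) had 604, 619.7 and 715 under DPI against 1781, 2079 and 1862 under water (log2 difference −1.56, SE 0.0553, limma adjusted p 1.51e-24), and LNK2 (AT3G54500) had 8054, 7937 and 7780.4 under DPI against 17304, 17808 and 16976 under water, a difference of −1.13. In each of these 3 genes every DPI library lay below every water library. The 2 groups did not overlap for 18 of the 23 tested clock genes, beside 48.6% of all tested genes. Of the PRR genes, PRR9 (AT2G46790) fell by 0.61 and PRR7 (AT5G02810) rose by 0.14 (limma adjusted p 0.0014). The evening gene TOC1 (AT5G61380), which represses CCA1 and LHY, had 219.8, 225 and 214 under DPI against 115, 112 and 108 under water (log2 difference 0.97, SE 0.0986, limma adjusted p 8.06e-11), while ELF3, ELF4 and LUX did not pass the test. Both groups were sampled without light stress. The study's methods place its experiments in the same morning hour, in the account of its light treatments. No hour is given separately for the drop experiment. Any difference in sampling time between the 2 groups was not tested and cannot be told apart from DPI.

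**Figure D3:**
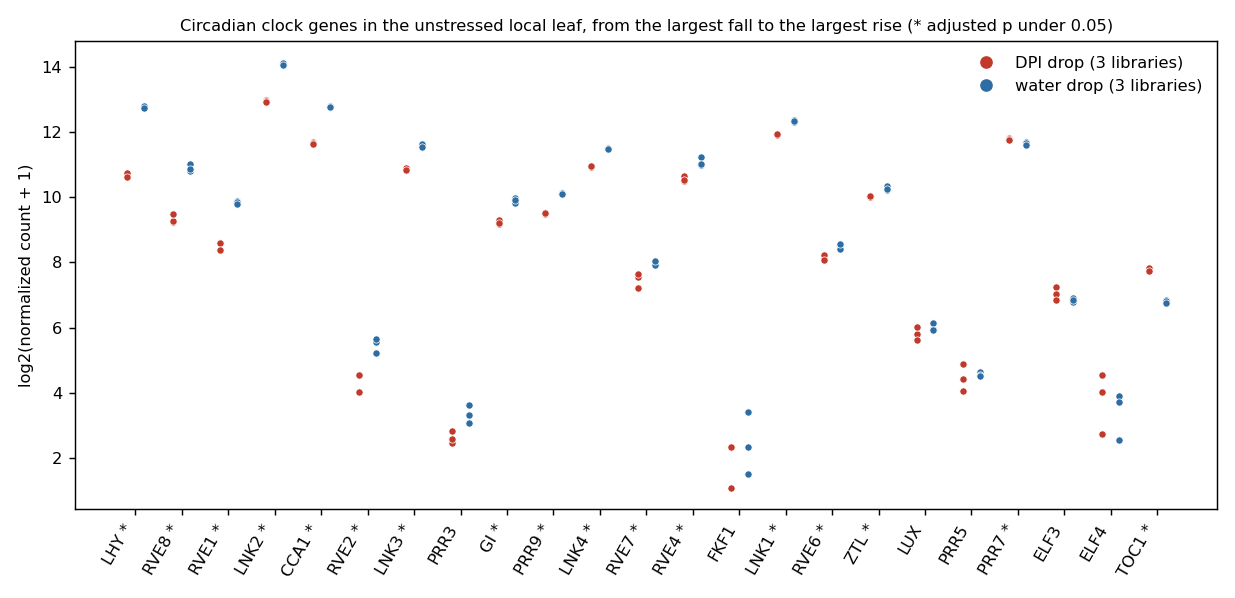
Normalized counts, on a log2 axis, of the tested clock genes in the unstressed local leaf, with the 3 DPI libraries beside the 3 water libraries of each gene. LHY, RVE8, RVE1, LNK2 and CCA1 lie lower in all DPI libraries, and TOC1 lies between 214 and 225 under DPI and between 108 and 115 under water.

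Of 16 flavonoid genes 8 were too low to test, and of the 8 tested 6 fell and 0 rose (median −0.57). HY5 (AT5G11260), a bZIP factor of light signalling, had 69.1, 95.3 and 87.8 normalized counts under DPI against 226, 209 and 233 under water (log2 difference −1.41, SE 0.113, limma adjusted p 1.43e-13), and the flavonol glucosyltransferase UGT78D2 (AT5G17050) had 416, 456 and 428 under DPI against 817, 832 and 829 under water (log2 difference −0.93, SE 0.0577, limma adjusted p 8.18e-17). Photosystem and antenna genes changed little: of 33 tested, 2 rose and 8 fell, and all but 2 log2 differences lay between −0.20 and 0.19. The exceptions were LHCB4.3 (AT2G40100), with 18.1, 23.3 and 14.3 under DPI against 60.5, 45.1 and 34.2 under water (log2 difference −1.27, SE 0.268, limma adjusted p 0.000156), and LHCB1.3 (AT1G29930), with 371456, 338931 and 343449.5 under DPI against 497716, 425784 and 468129 under water (log2 difference −0.40, SE 0.0501, limma adjusted p 1.41e-08). Without water replicate 2 the list held 1 rise and 13 falls, without water replicate 1 it held 4 rises, and without DPI replicate 1 or water replicate 3 it held 1 rise. With quantile normalization 9 photosystem genes rose and 3 fell, so the direction of this list depended on scaling, and LHCB1.3, the most abundant transcript in every library, was set equal by construction. LHCB1.3 also shares reads with other LHCB1 copies. In the Calvin cycle 10 of 16 genes fell and 0 rose (4 rose and 6 fell with quantile normalization). The largest falls were RBCS1B (AT5G38430), a Rubisco small subunit with close copies (14776, 14424 and 14512 under DPI against 25969, 23249 and 27147 under water, log2 difference −0.80, SE 0.052, limma adjusted p 3.14e-16), and the aldolase FBA1 (AT2G21330, −0.45).

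Of 16 genes of darkness and sugar starvation, 7 rose and 2 fell (median 0.11). The asparagine synthetase ASN1 (AT3G47340) had 2766, 2721 and 2721 normalized counts under DPI against 1535, 1256 and 1359.8 under water (log2 difference 0.99, SE 0.047, limma adjusted p 1.97e-20), and DIN10 (AT5G20250), a raffinose synthase family protein, had 1784, 1833 and 1872 under DPI against 1202, 1205 and 1246 under water, a difference of 0.59. Genes of growth and water flow leaned lower. Among expansins, which loosen cell walls, 7 of 11 fell and 1 rose: EXPA16 (AT3G55500) rose by 1.00 and EXPA3 (AT2G37640) fell by 0.95, with 208, 182 and 221 under DPI against 332, 437 and 423 under water. Of 13 plasma membrane aquaporins 9 fell and 0 rose, led by PIP2;3 (AT2G37180, fell by 0.88) and PIP2B (AT2G37170, fell by 0.69), neighbouring copies whose reads may be shared. The 12 Aux/IAA repressors were even, with 4 that rose and 4 that fell. IAA6 (AT1G52830) had 148, 167 and 171 under DPI against 67.5, 62.0 and 75.0 under water (log2 difference 1.24, SE 0.13, limma adjusted p 1.72e-10), and IAA5 (AT1G15580) had 20.4, 27.4 and 13.3 under DPI against 37.3, 38.5 and 32.6 under water (log2 difference −0.85, SE 0.254, limma adjusted p 0.00615), with −0.59 (limma adjusted p 0.0857) without DPI replicate 3.

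The study singled out transcription factors and other genes of the systemic light response, and 10 genes named in its text, RBOHD among them, were followed here. They are not identical to the study's own final selection, which rested in part on these samples, so the count is not independent evidence. Of the 10, 9 rose and 1 fell under DPI without any light stress, beside 21.5% and 19.0% of all tested genes. GATA8 (AT3G54810) had 1467, 1486 and 1592 normalized counts under DPI against 569, 591 and 582 under water (log2 difference 1.38, SE 0.0468, limma adjusted p 3.7e-25), and WRKY48 (AT5G49520) had 70.2, 75.1 and 106 under DPI against 26.2, 15.0 and 26.1 under water (log2 difference 1.87, SE 0.225, limma adjusted p 5.08e-09). MYB30 (AT3G28910) is a regulator of cell death, and the study proposes a role for it in the reactive oxygen wave. It had 542, 632 and 593 under DPI against 346, 339 and 341 under water (log2 difference 0.78, SE 0.0765, limma adjusted p 3.52e-11). The DPI and water libraries did not overlap in any of the 10 genes, beside 48.6% of all tested genes. The others that rose were AT1G69890 (1.56), WRKY53 (AT4G23810, 1.45), AT3G13600 (1.16), AT1G29670 (0.81), RBOHD and AT1G56520 (0.31), and AT5G46270 fell by 0.21.

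Whether these responses were particular to the local leaf was asked by setting them against the DPI response of unstressed systemic leaves. The systemic leaves lay on the other side of the drop and were sequenced as separate libraries. By the study's methods, local and systemic leaves were both frozen after treatment, so libraries of a replicate may share plants. The leaf comparison treated the libraries as independent, and any sharing of plants was not modelled in it. The difference between the leaves passed the limma threshold for 1403 genes, 7.66% of those tested: 922 were more positive in the local leaf (5.03%) and 481 more negative (2.63%). Among the salicylic acid genes the leaf difference passed for 17 of 19, all more positive locally, with NPR1 and PR5 the exceptions. In the endoplasmic reticulum list it passed for 13 of 13, also all more positive locally, in WRKY factors for 12 of 24, in detoxification for 10 of 19 and in camalexin synthesis for 5 of 7. For jasmonate genes it passed for 8 of 28, 4 in each direction. It passed for 4 of 6 lipid transfer proteins, 4 of 11 expansins and 3 of 8 flavonoid genes, all more negative locally. By contrast it passed for 1 of 18 ethylene and ERF genes, 1 of 23 clock genes, 1 of 13 aquaporins and 0 of 33 photosystem genes. Most members of the first lists also rose in the systemic leaf. These were 15 of 19 salicylic acid genes (median 0.54), 11 of 13 endoplasmic reticulum genes (1 fell) and 13 of 24 WRKY factors. Detoxification had 11 of 19 (1 fell) and camalexin synthesis 5 of 7. The share of all tested genes that rose in the systemic leaf was not counted.

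PR1 shows the first pattern, but unlike most members of its list it did not rise in the systemic leaf. It averaged 1121 ± 116 normalized counts under DPI and 35.9 ± 5.54 under water in the local leaf, and 79.9 ± 6.61 under DPI and 96.3 ± 4.18 under water in the systemic leaf (SD, n = 3 each), so the DPI effects differed by 5.20 (SE 0.181, limma adjusted p 5.53e-23). ARD3 averaged 451 ± 8.70 under DPI and 12.4 ± 2.01 under water locally, against 48.0 ± 11.9 under DPI and 45.0 ± 4.32 under water systemically, a difference of 5.03 (limma adjusted p 1.73e-16). LTP3 shows another: it averaged 635 ± 196 under DPI and 14.8 ± 2.47 under water locally, against 722 ± 5.27 under DPI and 5.25 ± 2.45 under water systemically, and its effect was larger in the systemic leaf (local minus systemic −1.62, limma adjusted p 0.0139). LHY changed by −2.08 locally and −2.33 systemically, a difference of 0.25 (limma adjusted p 0.00148), and CCA1 by −1.11 and −1.19, which did not differ past the threshold (difference 0.08, SE 0.0448, limma adjusted p 0.317). CYP94B3 was more responsive in the systemic leaf within a list that rose in both, and changed by 3.15 locally and 5.35 systemically (limma adjusted p of the difference 0.000283). CYP81D11 was at 0 in all 3 systemic water libraries and averaged 40.7 ± 1.34 under DPI there (SD, n = 3), so the size of its systemic and leaf differences depends on the pseudocount. LTP6 fell locally and had a systemic difference of 1.15, with 0.00129 as the limma adjusted p of the leaf difference. Of the 241 genes that rose at least 4-fold, 138 were more positive locally, 135 also rose in the systemic leaf, and for 95 the leaf difference did not pass. Of the 191 that fell at least 2-fold, the leaf difference passed for 24. Both sets were selected by their change in the unstressed local leaf. That change enters the leaf difference, so the selection favoured a difference in its direction. No share over all tested genes was counted beside the 135.

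**Figure D4:**
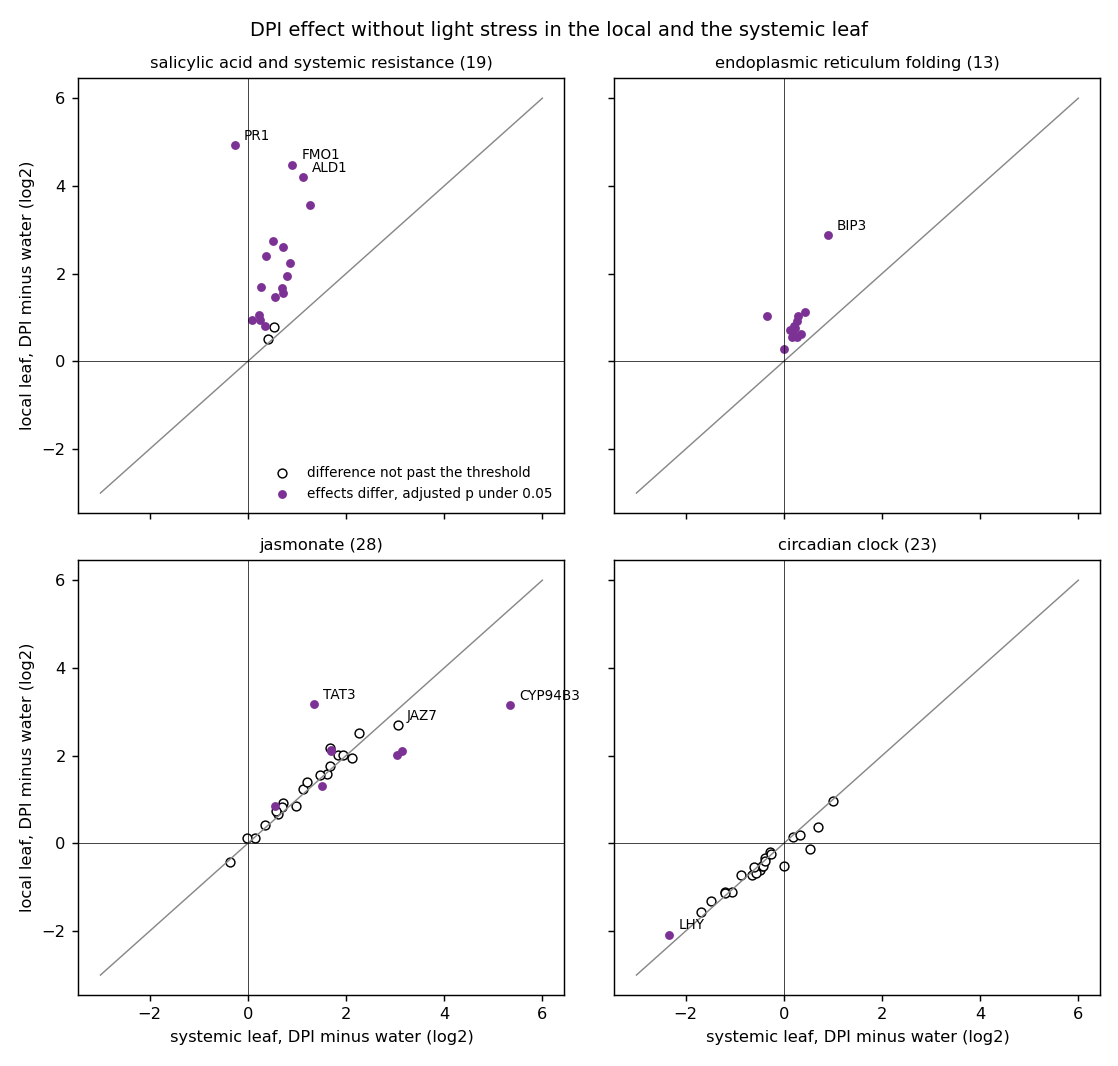
Log2 difference between DPI and water in the local leaf (vertical axis) against that in the systemic leaf (horizontal axis), both unstressed, for members of 4 gene lists. Each point is a gene and the diagonal marks equal effects. Salicylic acid and endoplasmic reticulum folding genes lie above the diagonal, and most jasmonate and clock genes lie near it.

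The same question was put to light, by setting the response in the unstressed local leaf against that in local leaves lit for 8 min, again from separate libraries. By the study's methods the light came after the 15 min of the drop, so lit leaves were sampled later after the drop than unstressed leaves. Light and time since the drop cannot be told apart in this comparison. The 2 responses differed for 3642 genes (19.9% of those tested), 2042 of them more positive in the unstressed leaf (11.1%) and 1600 more negative (8.74%). All 19 salicylic acid genes, all 13 endoplasmic reticulum genes, all 7 camalexin genes and 26 of 28 jasmonate genes passed this test, all of them more positive in the unstressed leaf except 1 jasmonate gene, CYP94B3. In the lit leaf 6 of the 19 salicylic acid genes were higher under DPI and 10 lower. The shares of all tested genes called higher or lower in the lit leaf were not counted, so these 2 numbers have no background beside them. FMO1 averaged 72.0 ± 14.9 normalized counts under DPI and 2.41 ± 1.28 under water without light, against 0 ± 0 under DPI and 17.0 ± 2.21 under water in lit leaves (SD, n = 3 each), a difference of effects of 8.64 (SE 0.747, limma adjusted p 5.06e-12) whose size depends on the pseudocount, since all 3 lit DPI libraries were at 0. ALD1 averaged 130.0 ± 6.60 under DPI and 6.30 ± 1.74 under water without light, against 9.05 ± 2.72 under DPI and 35.4 ± 8.35 under water in lit leaves (difference 6.06, limma adjusted p 4.86e-12). BIP3 averaged 229.6 ± 25.2 under DPI and 32.7 ± 15.3 under water without light, against 34.8 ± 10.6 under DPI and 83.4 ± 18.5 under water in lit leaves (difference 4.13, limma adjusted p 3.58e-13). For these genes the lit water leaves were above the unstressed water leaves, and the lit DPI leaves were below the lit water leaves.

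FSD1 had the opposite arrangement. It averaged 340.3 ± 29.2 normalized counts under DPI and 999 ± 52.4 under water without light, against 329 ± 46.4 under DPI and 88.2 ± 14.0 under water in lit leaves, a difference of effects of −3.44 (SE 0.19, limma adjusted p 9.37e-18). Among the clock genes the light difference passed for 8 of 23, and LHY changed by −2.08 without light and −2.39 with it. In the Calvin cycle it passed for 3 of 16 and among the hypoxia genes for 0 of 7, and of the 191 genes that fell at least 2-fold for 61. Of the 241 genes that rose at least 4-fold, 209 responded more positively in the unstressed leaf, and 103 were lower under DPI in the lit leaf. The 241 were selected by their rise in the unstressed leaf. That rise enters the light difference, so the selection favoured a more positive difference. No share over all tested genes was counted beside the 103.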

How the data were processed

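RNA-seq libraries came from single leaves pooled over many plants. The deposited values were gene counts that the authors divided by DESeq2 size factors (deposited normalized counts, a library-scaled signal). Per the labels and the study's methods, FastQC 0.11.7, STAR 2.4.0.1, the TAIR10 genome and DESeq2 1.20.0 were used. How reads on both strands or from several sites were counted is not given in the sources used here, so values of overlapping genes and close copies are uncertain. Whole reads were recovered from 100% of values (tolerance 1e-06) and gave depths of 15679838 to 22202343 reads in the 6 libraries. Intervals and floors cover counting error only, and p-values measure the spread between these pools.

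Genes with at least 10 normalized counts in at least 3 of 24 libraries (18314 of 32833) were fitted with limma 3.58.1 (R 4.3.3, trend, two-sided) on log2 of the normalized count plus 1, with 1 mean for each of 8 groups (16 residual degrees of freedom), and p-values were adjusted over all tested genes by the Benjamini-Hochberg method at 0.05. The leaf and light comparisons were differences of 2 DPI effects in the same fit. Fold changes on this scale understate the change of low genes. The scripts were tested on simulated data. Alternatives were pseudocounts of 0.5 and 5, no filter, a mean of at least 50, rescaling by TMM or quantiles, the 6 libraries alone, a replicate block, edgeR 4.0.16 and DESeq2 1.42.0 run on recovered reads, and the fit without each library of a comparison in turn.

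The genes and lists were chosen with earlier results of these data known. Named were, among genes past the threshold with non-overlapping libraries and a higher group mean of at least 50, the 10 largest rises and falls, and in each of the 28 lists the 2 members with the largest change past the threshold, and all tested members of the RBOH list and of the list of genes named in the study's text. Other members were named for their role after their values were seen. Promoter windows came from RefSeq annotation of TAIR10.1, whose gene identifiers covered 32548 of the 32833. Figures were drawn with matplotlib 3.10.9.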

Additional observations from a re-analysis of the deposited data

Results flagged for a closer look

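For 13 named genes the effect of DPI differed by at least 2 on the log2 scale between the local and the systemic leaf, with the difference itself past the limma threshold (the largest adjusted p was 0.00374). More positive in the local leaf were UGT76B1 (5.33), PR1 (5.20), ARD3 (5.03), AT3G13610 (4.59), CYP71A13 (3.82), GSTU4 (3.72), FMO1 (3.57), PAD3 (3.40), ALD1 (3.06), ZAT7 (2.49) and WRKY38 (2.31). More negative in the local leaf were CYP81D11 (−2.49) and CYP94B3 (−2.20), which rose in both leaves. CYP81D11 was at 0 in all 3 systemic water libraries, so its value depends on the pseudocount. Most named genes were chosen by the size of their change in the unstressed local leaf. That change enters the leaf difference and the light difference, so the naming favoured large values of both.

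For 20 the effect differed by at least 2 between the unstressed and the lit local leaf (the largest limma adjusted p was 0.000263). More positive in the unstressed leaf were PAD3 (9.20), PR1 (8.70), FMO1 (8.64), GSTU4 (7.47), AT3G13610 (6.96), CYP71A13 (6.94), ARD3 (6.69), LTP4 (6.54), UGT76B1 (6.42), ALD1 (6.06), WRKY38 (5.41), BIP3 (4.13), TAT3 (3.77), CYP81D11 (3.59), LTP3 (3.25), ZAT7 (3.20), CML37 (2.55) and RD29B (2.09). More negative in the unstressed leaf were FSD1 (−3.44) and CYP94B3 (−2.14). LTP4 was at 0 in all lit and all water local libraries, and FMO1 and PAD3 in all lit DPI libraries, so their values depend on the pseudocount and are no bound.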

How the results depend on the processing

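In 16 alternatives to the fit used, 70 of the 74 named genes kept their direction and their side of the threshold wherever they were tested (a mean of at least 50 left some out), and 0 turned their direction. ZAT11 missed it with a pseudocount of 5, with quantile normalization and without DPI replicate 2, DPI replicate 3 or water replicate 3 (limma adjusted p 0.0514 to 0.113), FRO4 without water replicate 1 (0.183), IAA5 without DPI replicate 3 (0.0857) and LHCB1.3 with quantile normalization (log2 difference 0.00). Falls of at least 2-fold numbered 125 with a pseudocount of 5, which shrinks low genes by construction, and 100 with a mean of at least 50, where fewer genes are tested, as do rises of at least 2-fold (480). Quantile normalization gave 3495 rises and 4286 falls, 44.92% of calls higher against 53.15%, and the cause was not tested. Leaving out each library of a comparison in turn gave 6676 to 6838 calls (3582 to 3690 higher, 3068 to 3176 lower, 778 to 832 and 178 to 204 at least 2-fold), 1128 to 1393 leaf differences (763 to 868 and 342 to 525) and 3192 to 3461 light differences (1847 to 1972 and 1341 to 1541). In the other settings the calls ranged from 6887 to 7781. DPI and water libraries of the same replicate number deviated together only weakly (correlations 0.0399, 0.0186 and 0.0177), though each correlated best with its own number, so the numbers were not taken as pairs. With the replicate block 7671 genes were called, with 1672 leaf and 3967 light differences, and 13 rather than 8 photosystem genes fell. Depth limited genes below about 3 normalized counts, the floor in these libraries.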

Other observations

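Gene families outside the lists also moved together under DPI in the unstressed local leaf. Families were formed from the letters of the gene symbol after the values of the lists were seen, with at least 10 tested members (105 families), and those named here were chosen after their counts were seen. Of 35 tested genes with the symbol CRK, which covers cysteine-rich receptor-like kinases and CDPK-related kinases, 26 rose and 3 fell, with a median log2 difference of 0.98, beside 21.5% and 19.0% over all tested genes. Of 40 receptor-like proteins (RLP), immune receptors without a kinase domain among them, 22 rose and 3 fell (median 0.39), and of 21 plant U-box ubiquitin ligases (PUB) 14 rose and 0 fell (median 0.32). Calcium-dependent protein kinases (CPK) rose in 11 of 19 and fell in 1 (median 0.22), and purine permeases (PUP) rose in 7 of 13 and fell in 0 (median 0.53). Lower families included the B-box zinc finger factors (BBX), of which 10 of 16 fell and 2 rose (median −0.39), and the UMAMIT amino acid transporters, of which 11 of 27 fell and 1 rose (median −0.21). Members of a family share sequence, so their counts are not independent.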
